A study of Homo sapiens with 6 samples.

Results

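The interferon-stimulated genes described here are 40 genes, taken by name from a gene count table of 58735 rows, using the protein-coding row where a name repeats. All 40 were found. They were measured by RNA sequencing in SKOV3ip1 cells, an established human ovarian adenocarcinoma line, after transfection with BARD1 siRNA (3 libraries) or control siRNA (3 libraries). All 6 cultures were labelled WT in genotype, received 2 µg of siRNA with 6 µL of Lipofectamine 2000 in a 6-well plate at 60% confluence, and were taken at 48 h. Both groups had therefore received a short double-stranded RNA with cationic lipid, and no untransfected or lipid-only group was analysed here. The labels name the sample both as cells and as tumors, and the protocols describe cultured cells. The siRNA sequences, and whether 1 or several siRNAs were used, were not stated in the labels.

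Type I and type III interferons are cytokines that cells release when they sense viral nucleic acid. They act through JAK kinases on the factor complex ISGF3, which includes STAT2 and IRF9 and binds the interferon-stimulated response element (ISRE) in the promoters of many genes. The products of these genes detect viral RNA, degrade it, block its translation or hold back virus release. Some interferon-stimulated genes can also be switched on by IRF or NF-κB factors without interferon, and type II interferon acts through the GAS element. Many carcinoma cell lines express some of these genes without added interferon.

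The promoters show what the members share beyond their names. Windows of 300 bases, from 250 before to 50 after the start of the RefSeq gene, were available on GRCh38.p14 for 33 of the 40 members. The ISRE core was searched as GAAANNGAAA on both strands, where N is any base. It occurred in 20 of the 33 member promoters (60.6%), against 3.57% of 35116 RefSeq promoters of the same length. Allowing 1 mismatch raised these shares to 84.8% of member promoters and 33% of all promoters. The GAS element TTCNNNGAA, a palindrome, was present in 10 of the 33 (30.3%) against 7.66% of all promoters, and the NF-κB consensus, searched on both strands, in 8 (24.2%) against 5.91%. A match describes the letters only and is not a measured binding site.

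The next 4 promoters each carry the ISRE core and belong to genes that behaved differently. IFIT3 (chr10:89327747-89328046, plus strand) and IFIT1 (chr10:89392373-89392672, plus strand) lie in the same cluster, ISG15 (chr1:1013247-1013546, plus strand) rose, and HERC5 (chr4:88456869-88457168, plus strand) was the single member called lower. Sequences are 5′ to 3′ on the gene's strand, and capitals mark the ISRE core in either orientation, with overlapping matches run together.
IFIT3: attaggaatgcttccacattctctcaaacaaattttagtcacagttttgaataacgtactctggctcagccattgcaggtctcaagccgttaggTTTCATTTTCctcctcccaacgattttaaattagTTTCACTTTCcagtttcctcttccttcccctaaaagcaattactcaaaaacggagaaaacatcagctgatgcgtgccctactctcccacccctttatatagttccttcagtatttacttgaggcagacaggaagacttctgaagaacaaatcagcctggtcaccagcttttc
IFIT1: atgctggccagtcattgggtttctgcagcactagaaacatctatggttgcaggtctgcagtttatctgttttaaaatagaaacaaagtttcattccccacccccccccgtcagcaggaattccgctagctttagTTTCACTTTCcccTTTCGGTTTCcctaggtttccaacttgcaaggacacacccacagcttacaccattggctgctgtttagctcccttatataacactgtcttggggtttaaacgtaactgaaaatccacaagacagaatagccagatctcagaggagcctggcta
ISG15: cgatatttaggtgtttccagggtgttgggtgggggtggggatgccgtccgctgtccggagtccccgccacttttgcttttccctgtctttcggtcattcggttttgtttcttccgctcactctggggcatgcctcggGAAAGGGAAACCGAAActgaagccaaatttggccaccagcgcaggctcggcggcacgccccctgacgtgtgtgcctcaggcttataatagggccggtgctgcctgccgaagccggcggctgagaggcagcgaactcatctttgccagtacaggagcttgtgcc
HERC5: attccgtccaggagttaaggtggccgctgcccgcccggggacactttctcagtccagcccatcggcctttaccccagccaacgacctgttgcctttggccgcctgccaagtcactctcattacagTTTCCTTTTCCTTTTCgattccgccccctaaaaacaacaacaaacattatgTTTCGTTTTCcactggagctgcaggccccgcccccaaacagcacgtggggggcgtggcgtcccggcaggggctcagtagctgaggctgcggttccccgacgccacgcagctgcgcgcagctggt

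IRF1, the member with the smallest adjusted p, has no ISRE core in its window (chr5:132490724-132491023, minus strand). In its sequence the capitals mark instead the GAS element and the NF-κB consensus, found once each.
IRF1: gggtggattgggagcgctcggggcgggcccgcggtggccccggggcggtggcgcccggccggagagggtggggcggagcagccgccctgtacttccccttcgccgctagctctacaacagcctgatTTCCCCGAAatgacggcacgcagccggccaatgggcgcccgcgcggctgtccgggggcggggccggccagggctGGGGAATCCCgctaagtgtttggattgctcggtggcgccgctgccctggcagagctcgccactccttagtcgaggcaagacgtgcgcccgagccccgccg

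The libraries held 16621108 to 17743404 gene counts, so that 1 CPM (a read count scaled to library size with TMM factors) stood for 16.2 to 18.0 reads. BARD1 itself averaged 7.38 ± 2.04 CPM with BARD1 siRNA and 44.3 ± 5.85 CPM with control siRNA (SD, n = 3 each), with 5.91, 6.52 and 9.71 CPM with BARD1 siRNA all under the 45.8, 37.8 and 49.2 CPM with control siRNA (edgeR adjusted p = 1.21e-15). Of 9 ovarian carcinoma epithelial markers, 7 were expressed, from MSLN at 14.0 TPM (a level scaled per gene length) with BARD1 siRNA and 17.0 with control siRNA to KRT8 at 642 with BARD1 siRNA and 645 with control siRNA, and WT1 and MUC16 were below 1 TPM in both groups. Between the groups KRT18 and PAX8 were called higher, KRT19, EPCAM and ERBB2 lower, and KRT8 and MSLN were not called, with sums over the 9 of 2210 to 2280 TPM with BARD1 siRNA and 2240 to 2420 TPM with control siRNA. Of 11 leukocyte markers, 6 (PTPRC, CD3E, MS4A1, LYZ, NKG7 and CLEC4C) were at 0 counts in all 6 libraries, and the 11 summed to 1.12 to 1.88 TPM with BARD1 siRNA and 1.69 to 2.48 TPM with control siRNA. The 5 endothelial markers summed to 0.421 to 0.672 TPM with BARD1 siRNA and 0.345 to 0.553 TPM with control siRNA. The 5 fibroblast markers summed to 6.95 to 9.44 TPM with BARD1 siRNA and 12.3 to 13.1 TPM with control siRNA, mostly COL3A1, and their part in the results was not tested. In a bulk library, a change in the share of cells that express a gene and a change in RNA per cell cannot be told apart.

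The interferon-stimulated genes were mostly higher with BARD1 siRNA, but unevenly so. Of the 40 members 20 were called higher and 1 lower, 13 were tested and not called, and 6 had too few counts to test. A gene is called here when its Benjamini-Hochberg adjusted p over all 15271 tested genes is under 0.05 in edgeR's quasi-likelihood test. Calls were frequent genome-wide: 42.3% of all tested genes were called, 22.0% higher and 20.3% lower. Among the 34 tested members 58.8% were called higher and 2.94% lower. OASL and RSAD2 reached the filter on low counts through the BARD1 siRNA libraries only, and of the other 32 tested members 18 (56.2%) were called higher. The filter asks for 0.579 CPM in as many libraries as a group holds. OAS1, OAS2 and GBP2 fell short of it in 1 control siRNA library each (9, 8 and 10 counts). These genes also needed BARD1 siRNA libraries to pass, and they are among the 18. OASL, RSAD2, OAS1, OAS2 and GBP2 all count at both folds below. The median log2 fold change of the 34 was 0.56, against -0.01 for all tested genes, and single members ranged from -0.70 to 4.34. At a fold of at least 2, 11 members were called higher and 0 lower, against 4.48% and 1.94% of all tested genes. At a fold of at least 1.5, 15 members were called higher and 0 lower, against 9.49% and 6.04% of all tested genes. The CPM of the groups did not overlap in 23 tested members, 21 with BARD1 siRNA above and 2 below (HERC5 and IFIT1), and in 50.4% of all tested genes, 25.8% above and 24.7% below. With upper-quartile factors 41.5% of all called genes were higher, compared with 51.9% under TMM, while the members then counted 20 higher and 3 lower.

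**Figure D1:**
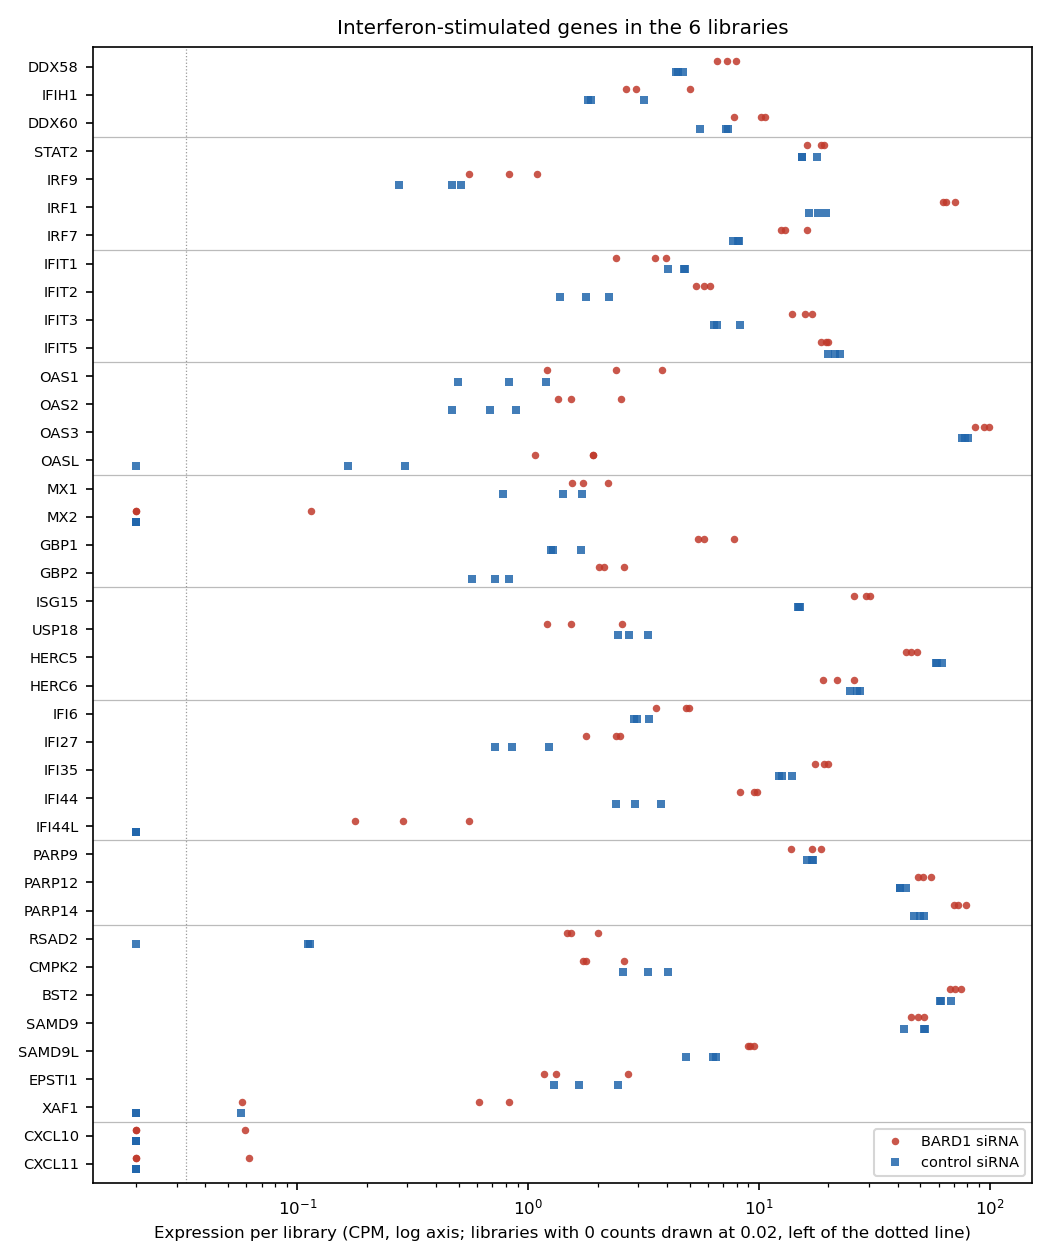
Expression of the 40 interferon-stimulated genes in each library, in CPM on a log axis, with 1 point per library, grouped by role from sensors at the top to chemokines at the bottom. The levels span from 0 counts (CXCL10, CXCL11 and MX2 in nearly all libraries) to over 60 CPM for OAS3 and BST2, and for IRF1, ISG15, IFI44 and GBP1 the BARD1 siRNA points lie clear of the control siRNA points.

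Levels per length placed the members far apart before any comparison. TPM was computed from the counts and the deposited gene lengths. In control siRNA libraries 12 members reached 10 TPM and 13 stayed under 1 TPM. BST2, which encodes tetherin, a membrane protein that holds budding virus at the cell surface, was the highest at 220 TPM with BARD1 siRNA and 204 TPM with control siRNA. ISG15, a ubiquitin-like protein conjugated to other proteins, followed in the order of control siRNA levels at 104 TPM with BARD1 siRNA and 57.1 TPM with control siRNA. HERC5 stood at 33.3 TPM with BARD1 siRNA and 45.3 TPM with control siRNA, and OAS3 at 39.2 and 34.1 TPM in the same order. The 5 highest members in control siRNA (BST2, ISG15, HERC5, OAS3 and SAMD9) made up 60.1% of the summed member TPM with BARD1 siRNA and 65.4% with control siRNA. The median tested member stood at 6.06 TPM with BARD1 siRNA and 5.06 TPM with control siRNA, against 15.7 and 15.8 TPM over all tested genes. Member CPM summed to 679, 688 and 681 in the BARD1 siRNA libraries and 528, 523 and 536 in the control siRNA libraries.

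**Figure D2:**
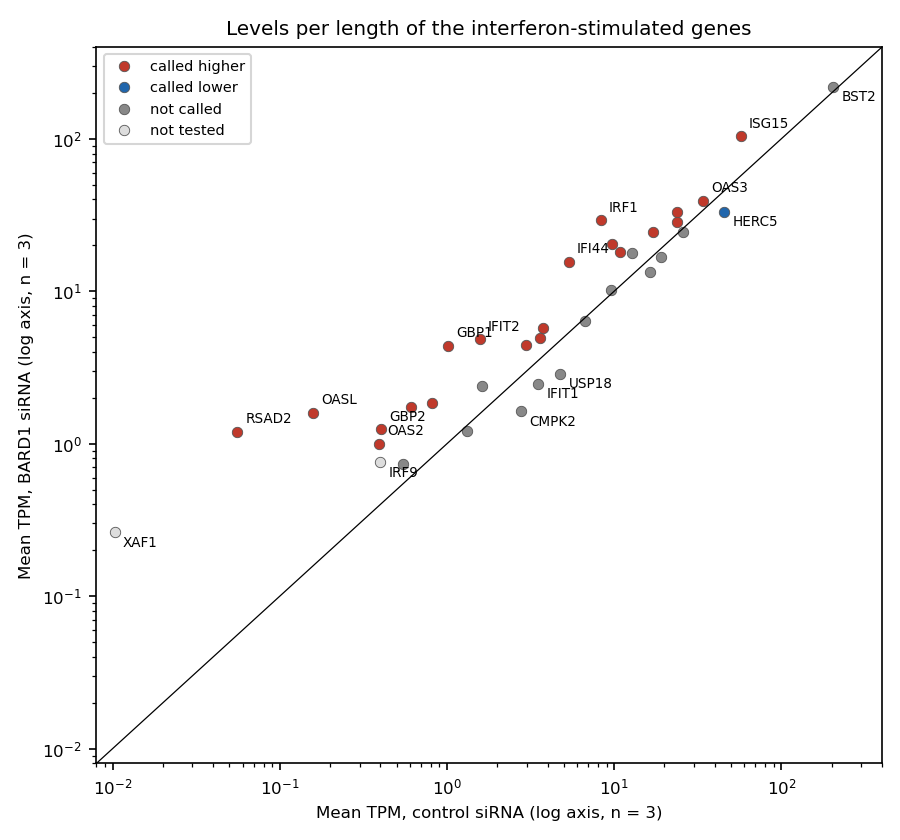
Mean TPM of each member detected in both groups, BARD1 siRNA on the vertical and control siRNA on the horizontal log axis, with the diagonal marking equal levels and colours marking the call. BST2 at the top lies close to the diagonal, whereas RSAD2 and OASL, at 1.20 and 1.60 TPM with BARD1 siRNA, lie far above it from a control siRNA level of 0.0558 and 0.157 TPM.

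Among the sensors of viral RNA, 2 of 3 were called higher, against 22.0% of all tested genes. DDX58, which encodes RIG-I, the cytosolic sensor of RNA with a 5′ triphosphate, had 7.94, 6.58 and 7.24 CPM with BARD1 siRNA and 4.67, 4.46 and 4.38 CPM with control siRNA (log2 fold change 0.69, SE 0.20, edgeR adjusted p = 0.00380). Its values did not overlap between the groups. DDX60, a helicase related to the RIG-I pathway, had 10.6, 7.82 and 10.2 CPM with BARD1 siRNA and 7.34, 7.22 and 5.55 CPM with control siRNA (log2 fold change 0.51, edgeR adjusted p = 0.0147). Its call was lost without BARD1 siRNA replicate 1 (adjusted p = 0.0849), BARD1 siRNA replicate 3 (0.0699) or control siRNA replicate 3 (0.0920). IFIH1, which encodes MDA5, the sensor of long double-stranded RNA, had 2.65, 5.04 and 2.93 CPM with BARD1 siRNA and 1.82, 1.88 and 3.16 CPM with control siRNA. These ranges overlapped and IFIH1 was not called (log2 fold change 0.63, edgeR adjusted p = 0.0900), although it passed without BARD1 siRNA replicate 1 (0.0438) or control siRNA replicate 3 (0.0217).

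Of the transcription factors, IRF1 and IRF7 rose while the subunits of the ISGF3 complex did not pass. IRF1, a factor induced by type II interferon and by NF-κB, had 70.3, 64.9 and 62.4 CPM with BARD1 siRNA and 18.0, 19.6 and 16.4 CPM with control siRNA. That was a 3.66-fold increase with a wide gap between the groups (log2 fold change 1.87, SE 0.09, edgeR adjusted p = 4.21e-24). IRF1 exons overlap those of C5orf56 on the opposite strand by 1716 bases (22%), and C5orf56 had a mean of 21.83 counts over the 6 libraries against 711.5 for IRF1. IRF7, the factor that amplifies type I interferon production, had 12.9, 16.2 and 12.4 CPM with BARD1 siRNA and 8.08, 8.16 and 7.71 CPM with control siRNA (log2 fold change 0.79, SE 0.15, edgeR adjusted p = 1.67e-05). STAT2 had 18.5, 16.2 and 19.2 CPM with BARD1 siRNA and 15.3, 17.9 and 15.4 CPM with control siRNA, an overlap (log2 fold change 0.15, SE 0.12, edgeR adjusted p = 0.325). IRF9 was too low to test, with 42 counts over the BARD1 siRNA and 22 over the control siRNA libraries. Another annotated gene, AL136295.5, shares 48.4% of its exon bases on the same strand, so even these few reads cannot be assigned with certainty.

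IFIT genes, whose tetratricopeptide-repeat proteins bind viral RNA lacking cap methylation or restrict its translation, lie side by side on chromosome 10 and split in the comparison. IFIT2 had 5.79, 6.16 and 5.34 CPM with BARD1 siRNA and 1.37, 2.23 and 1.78 CPM with control siRNA (log2 fold change 1.68, SE 0.26, edgeR adjusted p = 3.18e-07). IFIT3 had 17.0, 13.9 and 15.9 CPM with BARD1 siRNA and 8.31, 6.40 and 6.55 CPM with control siRNA (log2 fold change 1.14, SE 0.15, edgeR adjusted p = 9.09e-09). For both genes the lowest BARD1 siRNA value lay above the highest control siRNA value. IFIT1 went the other way in level, with 2.40, 3.55 and 3.96 CPM with BARD1 siRNA and 4.78, 4.05 and 4.72 CPM with control siRNA, and was not called (log2 fold change -0.45, SE 0.24, edgeR adjusted p = 0.141). IFIT5 had 19.9, 18.6 and 19.5 CPM with BARD1 siRNA and 19.9, 22.4 and 21.4 CPM with control siRNA (log2 fold change -0.13, edgeR adjusted p = 0.349). The promoters of IFIT3 and IFIT1 printed above each hold 2 ISRE cores, and that of IFIT5 holds 3. The exons of IFIT2 overlap those of LIPA on the opposite strand by 65 bases of 4101, and LIPA had the higher mean count.

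All 4 members of the OAS family were called higher, against 22.0% of all tested genes. OASL reached the filter on low counts through the BARD1 siRNA libraries only, and OAS1 and OAS2 also needed BARD1 siRNA libraries to pass. The count of 4 therefore rests partly on that filter. The OAS family is known for enzymes that make 2′-5′ oligoadenylates to activate RNase L. OASL, a family member without that enzyme activity, had 31, 18 and 33 counts with BARD1 siRNA and 0, 5 and 3 counts with control siRNA (log2 fold change 3.35, SE 0.63, edgeR adjusted p = 1.70e-05). Its size rested on few control reads: the log2 fold change was 4.16 without control siRNA replicate 2 and 2.78 without control siRNA replicate 1. OAS1 had 39, 64 and 21 counts with BARD1 siRNA and 21, 14 and 9 counts with control siRNA (log2 fold change 1.55, SE 0.43, edgeR adjusted p = 0.00243). OAS2 had 22, 26 and 44 counts with BARD1 siRNA and 12, 8 and 16 counts with control siRNA (log2 fold change 1.40, SE 0.46, edgeR adjusted p = 0.0106). Neither call survived every omission, with an adjusted p of 0.0949 for OAS1 without BARD1 siRNA replicate 2, and for OAS2 of 0.124 without BARD1 siRNA replicate 3 and 0.0564 without control siRNA replicate 2. OAS3, which was expressed at a far higher level per length than the others, had 94.3, 86.1 and 99.5 CPM with BARD1 siRNA and 80.2, 75.6 and 78.3 CPM with control siRNA. Its increase was 1.20-fold (log2 fold change 0.26, SE 0.07, edgeR adjusted p = 9.68e-04).

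Both guanylate-binding protein genes rose, and the MX genes did not pass or were too low to test. GBP1, a large GTPase that coats intracellular bacteria and is strongly induced by type II interferon, had 5.42, 7.82 and 5.80 CPM with BARD1 siRNA and 1.25, 1.70 and 1.28 CPM with control siRNA (log2 fold change 2.17, SE 0.27, edgeR adjusted p = 1.31e-09). Its neighbour GBP2 had 2.03, 2.61 and 2.13 CPM with BARD1 siRNA and 0.569, 0.822 and 0.721 CPM with control siRNA (log2 fold change 1.67, SE 0.42, edgeR adjusted p = 9.64e-04). For both the groups were far apart, although each gene has close paralogues among which reads may have been divided. MX1, the dynamin-like inhibitor of influenza virus, had 2.22, 1.72 and 1.55 CPM with BARD1 siRNA and 1.71, 1.41 and 0.777 CPM with control siRNA, which overlapped (log2 fold change 0.49, SE 0.40, edgeR adjusted p = 0.341). MX2, an inhibitor of HIV-1 nuclear import, had 2 counts in the BARD1 siRNA and 0 in the control siRNA libraries, both within the 3 counts that a count of 0 allows.

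In the ISG15 conjugation system, ISG15 rose and HERC5 fell. ISG15 had 29.0, 30.2 and 25.7 CPM with BARD1 siRNA and 15.1, 14.7 and 14.9 CPM with control siRNA, a 1.90-fold increase (log2 fold change 0.92, SE 0.11, edgeR adjusted p = 4.64e-10). HERC5, the main human ligase that attaches ISG15 to newly made proteins, had 45.7, 48.2 and 43.5 CPM with BARD1 siRNA and 59.0, 58.5 and 62.2 CPM with control siRNA. It was 1.31-fold lower, the groups did not overlap, and it was the single member called lower (log2 fold change -0.39, SE 0.08, edgeR adjusted p = 3.45e-05). USP18, the protease that removes ISG15 and dampens interferon receptor signalling, had 1.54, 2.55 and 1.21 CPM with BARD1 siRNA and 2.73, 3.29 and 2.44 CPM with control siRNA, a slight overlap (log2 fold change -0.67, SE 0.33, edgeR adjusted p = 0.0937). HERC6, a relative of HERC5 beside it on chromosome 4, had 352, 321 and 451 counts with BARD1 siRNA and 438, 454 and 492 counts with control siRNA (log2 fold change -0.24, edgeR adjusted p = 0.0639). The call of HERC6 depended on scaling, and it was lower with upper-quartile factors (adjusted p = 0.0168), with library size alone (0.0196) and without BARD1 siRNA replicate 3 (0.0106). UBA7 and UBE2L6, the activating and conjugating enzymes for ISG15 outside the 40, had log2 fold changes of 0.75 and 0.24, with edgeR adjusted p of 0.0217 and 0.0567.

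**Figure D3:**
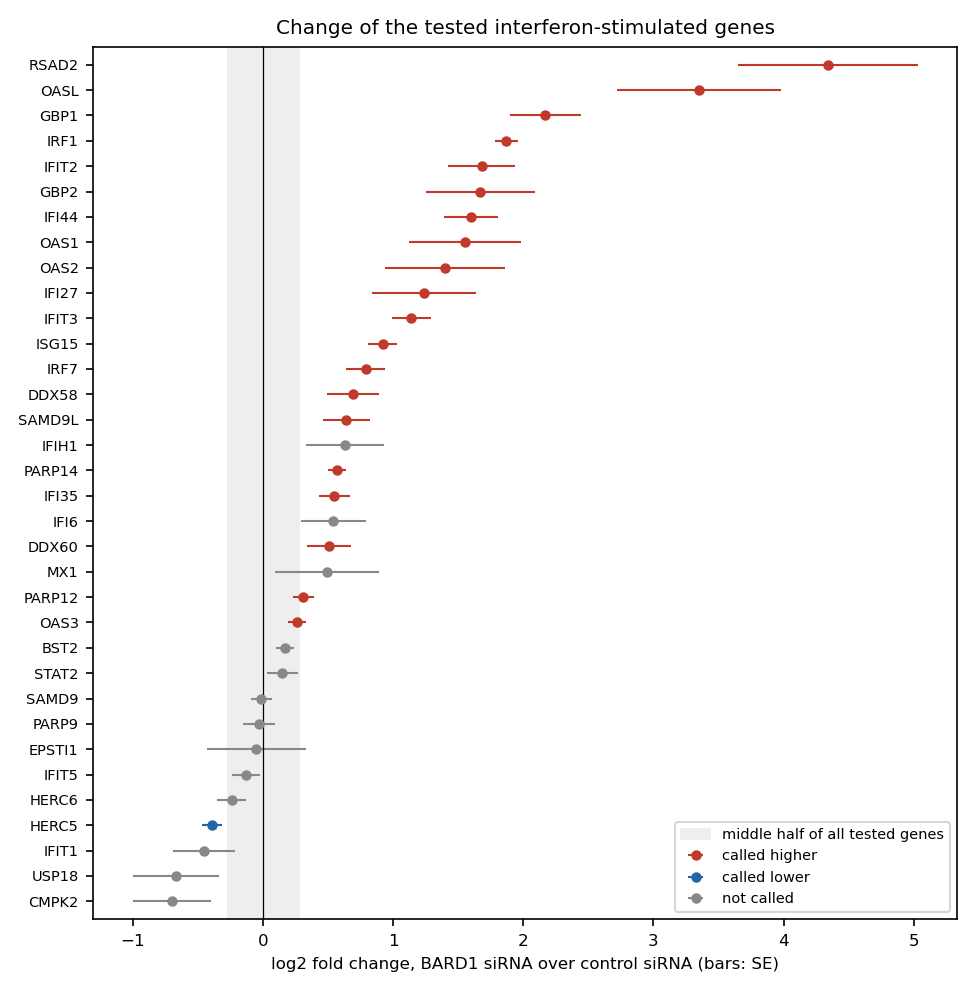
log2 fold change of the 34 tested members, BARD1 siRNA over control siRNA, with bars of 1 SE, coloured by call, and a grey band from the lower to the upper quartile of all tested genes. RSAD2 and OASL stand at the top at 4.34 and 3.35 with wide bars, HERC5 at -0.39 is the single member called lower, and CMPK2 at -0.70 is the lowest value but was not called.

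Of the 4 tested genes of small interferon-induced proteins, 3 were called higher, against 22.0% of all tested genes. IFI44 had the highest log2 fold change among these 4. IFI44, a cytoplasmic protein with a GTP-binding motif, had 8.25, 9.54 and 9.83 CPM with BARD1 siRNA and 2.90, 2.41 and 3.77 CPM with control siRNA (log2 fold change 1.60, SE 0.21, edgeR adjusted p = 5.24e-09). Its neighbour IFI44L had 9, 3 and 5 counts with BARD1 siRNA and 0 in all 3 control siRNA libraries. Against a floor of 3 counts over the control siRNA group this was at least 5.92-fold higher, a bound that covers counting error only. IFI27, a mitochondrial protein often used as a marker of interferon exposure, had 39, 42 and 31 counts with BARD1 siRNA and 15, 21 and 13 with control siRNA (log2 fold change 1.24, SE 0.40, edgeR adjusted p = 0.00967). IFI35 was 1.46-fold higher, with 17.5, 20.0 and 19.1 CPM in BARD1 siRNA and 12.6, 12.2 and 13.9 CPM in control siRNA libraries (edgeR adjusted p = 2.43e-04). IFI6, an inhibitor of mitochondrial apoptosis, had no overlap between groups, with 3.57, 4.98 and 4.83 CPM with BARD1 siRNA and 2.96, 3.35 and 2.88 CPM with control siRNA, but missed the threshold (log2 fold change 0.54, SE 0.25, edgeR adjusted p = 0.0717).

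PARP members, ADP-ribosyltransferases or their relatives, showed small differences, with 2 of 3 called higher, against 22.0% of all tested genes. PARP14 had 72.9, 78.5 and 69.7 CPM with BARD1 siRNA and 49.9, 47.1 and 51.8 CPM with control siRNA (log2 fold change 0.57, SE 0.07, edgeR adjusted p = 3.91e-09). PARP12 had 48.6, 51.1 and 55.8 CPM with BARD1 siRNA and 40.9, 40.9 and 43.5 CPM with control siRNA (log2 fold change 0.31, edgeR adjusted p = 0.00137). PARP9 had 18.5, 13.8 and 17.0 CPM with BARD1 siRNA and 16.9, 16.1 and 17.1 CPM with control siRNA, with the control siRNA range inside that of BARD1 siRNA (log2 fold change -0.03, SE 0.12, edgeR adjusted p = 0.883). DTX3L, the ubiquitin ligase partner of PARP9, whose gene shares 217 exon bases with PARP9 on the opposite strand, rose by 0.57 on the log2 scale.

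RSAD2 and CMPK2 are adjacent genes on chromosome 2 in opposite orientation, and their values pointed in opposite directions. RSAD2 encodes viperin, which makes a chain-terminating nucleotide, and it had 25, 25 and 35 counts with BARD1 siRNA and 2, 0 and 2 counts with control siRNA. Its log2 fold change of 4.34 (SE 0.69, edgeR adjusted p = 5.79e-07) was the highest of the 34 tested members, from a level of 1.68 ± 0.291 CPM with BARD1 siRNA and 0.0749 ± 0.0649 CPM with control siRNA (SD, n = 3 each). The ratio of its pooled counts was 22.2, with an exact 95% interval from 8.35 to 83.3 that covers counting error only. CMPK2, a mitochondrial nucleotide kinase that supplies the substrate of viperin, had 28, 30 and 45 counts with BARD1 siRNA and 58, 44 and 73 counts with control siRNA (log2 fold change -0.70, SE 0.30, edgeR adjusted p = 0.0541). Its sign did not turn under any alternative, and it passed as lower with upper-quartile factors (adjusted p = 0.0331), with library size alone (0.0349), and without BARD1 siRNA replicate 3 (0.0319) or control siRNA replicate 2 (0.0312). The exons of the 2 genes share only 14 bases. No ISRE core was found in either RefSeq window.

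Of the 6 tested members with other effector roles, RSAD2 and SAMD9L were called higher and 4 were not called. That is 33.3% called, under the 42.3% of all tested genes, and RSAD2 reached the filter on low counts through the BARD1 siRNA libraries only. SAMD9L, which restricts poxviruses and cell growth, had 9.11, 9.48 and 8.96 CPM with BARD1 siRNA and 4.84, 6.34 and 6.49 CPM with control siRNA (log2 fold change 0.64, SE 0.18, edgeR adjusted p = 0.00246). Its neighbour and paralogue SAMD9 had 45.4, 51.7 and 48.7 CPM with BARD1 siRNA and 51.9, 42.5 and 52.5 CPM with control siRNA, so that the groups overlapped (log2 fold change -0.01, SE 0.08, edgeR adjusted p = 0.923). BST2 had 70.8, 75.0 and 67.5 CPM with BARD1 siRNA and 61.3, 68.0 and 60.6 CPM with control siRNA, overlapping at 1 library each (log2 fold change 0.17, SE 0.07, edgeR adjusted p = 0.0511). It passed in 4 alternatives, among them protein-coding genes only (0.0457) and the fit without control siRNA replicate 2 (0.0108). EPSTI1, named for induction in epithelial cells by stromal contact, varied widely between replicates, with 19, 46 and 23 counts with BARD1 siRNA and 43, 22 and 30 with control siRNA (log2 fold change -0.05, SE 0.38, edgeR adjusted p = 0.930). XAF1, an antagonist of the apoptosis inhibitor XIAP, had 10, 14 and 1 counts with BARD1 siRNA and 1, 0 and 0 with control siRNA, too few to test. Its pooled ratio was 26.1 with an exact 95% counting interval from 4.27 to 1072, and the third BARD1 siRNA library was as low as a control siRNA library.

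The interferon-inducible chemokines were not expressed at a measurable level. CXCL10 and CXCL11, ligands of the chemokine receptor CXCR3, each had 1 count in the BARD1 siRNA and 0 counts in the control siRNA libraries. A count of 0 allows up to 3 counts per group, so a difference was not detectable at this depth. The window of CXCL10 holds both an ISRE core and the NF-κB consensus.

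Neighbours in 10 clusters of the genome, which hold 23 of the members within 500000 bases of one another, did not share 1 direction throughout. OAS1, OAS3 and OAS2 (chromosome 12, 112906777 to 113011723, GRCh38) and GBP1 and GBP2 (chromosome 1, 89052319 to 89150456) rose together. IFIT2 and IFIT3 rose beside IFIT1 and IFIT5 (chromosome 10, 89283694 to 89421001), which did not pass. RSAD2 rose beside CMPK2 (chromosome 2, 6840570 to 6898239), PARP14 beside PARP9 (chromosome 3, 122527924 to 122730840) and SAMD9L beside SAMD9 (chromosome 7, 93099513 to 93148369). HERC5 fell beside HERC6 (chromosome 4, 88378739 to 88506163), and IFI44 rose beside the barely detected IFI44L (chromosome 1, 78619922 to 78664078). MX1 and MX2 on chromosome 21 and CXCL10 and CXCL11 on chromosome 4 held no called gene. Whether the neighbours differ from each other was not tested. The plot of promoter matches sets the ISRE count beside the change. Of the 20 members with the core, 9 were called higher, 1 lower, 8 were not called and 2 were not tested. Of the 13 with a RefSeq window but no core, 6 were called higher, 4 not called and 3 not tested. Over all tested genes, 22.0% were called higher and 20.3% lower. IRF7, IFIT2, OAS2, OASL and GBP2, all called higher, had no RefSeq window, and nor did USP18 (not called) and MX2 (not tested). RSAD2, IRF1 and OAS1 rose without a core in this window, and IFIT1, IFIT5 and HERC5 did not rise with 2, 3 and 3 cores. With 1 mismatch allowed, 14 of the 28 members with a match were called higher, 1 lower, 9 were not called and 4 not tested, and of the 5 without a match 1 was called higher, 3 not called and 1 not tested. RSAD2 and OAS1 are among the 28. No match says only that these letters are absent from this window, and 1 window was searched per gene. That of RSAD2 (chr2:6865635-6865934) lies inside the CMPK2 gene.

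**Figure D4:**
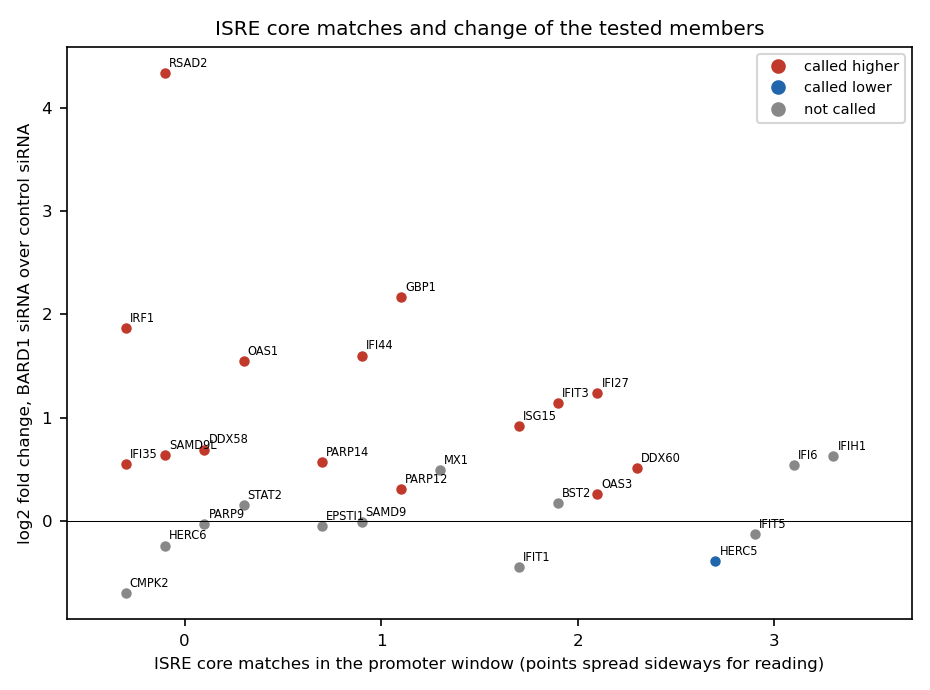
log2 fold change of tested members with a RefSeq promoter window against the number of ISRE core matches in that window (0 to 3), 1 point per gene, coloured by call and spread sideways for reading. Members called higher occur at 0, 1 and 2 matches, and none of the 4 members with 3 matches (HERC5, IFIT5, IFI6 and IFIH1) was called higher.

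Upstream of the members, interferon transcripts themselves were near the limit of detection. Of 21 interferon ligand genes only IFNE, an epithelial type I interferon, passed the filter, with 29 counts over the BARD1 siRNA and 42 over the control siRNA libraries (log2 fold change -0.48, SE 0.56, edgeR adjusted p = 0.523). IFNB1 was at 0 counts throughout, a result that allows up to 3 counts per group. IFNA1 had 4 counts with BARD1 siRNA and 0 with control siRNA, IFNL1 had 0 with BARD1 siRNA and 5 with control siRNA, and IFNA21 had 0 with BARD1 siRNA and 3 with control siRNA. Of 5 tested receptor genes 2 were called, a share near the 42.3% of all tested genes, both of them higher. They were IFNGR2 of the type II receptor (log2 fold change 0.66, edgeR adjusted p = 9.75e-10) and IL10RB, shared by type III interferon and interleukin-10 (1.56, edgeR adjusted p = 0.0116). IL10RB had 18, 24 and 24 counts with BARD1 siRNA and 7, 8 and 8 with control siRNA. It reached the filter on low counts through the BARD1 siRNA libraries only. The type I receptor genes IFNAR1 and IFNAR2 were not called, at 0.05 and 0.57 (edgeR adjusted p = 0.634 and 0.0776).

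Among the JAK and STAT genes outside the members, JAK1 rose by 0.42 on the log2 scale (edgeR adjusted p = 1.03e-09) and STAT3 was called higher at 0.15. Among the other IRF genes, IRF2 rose by 0.70 and IRF5 was called higher at 0.35, whereas IRF3, the factor activated by nucleic acid sensors, was not called at -0.06. The calls of STAT3 and IRF5 were lost with upper-quartile factors, among other alternatives. Of 12 tested sensors, adaptors and kinases 6 were called higher and 0 lower. They included IFI16, a nuclear DNA sensor, at 1.29, TICAM1, the adaptor of TLR3, at 1.18, TRIM25, the ligase that activates RIG-I, at 0.89, and the kinase gene IKBKE at 0.84, as log2 fold changes. For comparison, 22.0% of all tested genes were called higher.

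Of 10 tested inhibitors of interferon signalling 3 were called higher, 1 lower and 6 were not called, a share called near the 42.3% of all tested genes. SOCS1, which blocks JAK kinases, had 314, 287 and 385 counts with BARD1 siRNA and 12, 17 and 9 with control siRNA (log2 fold change 4.74, SE 0.22, edgeR adjusted p = 5.39e-25). SOCS3 rose by 0.55 on the log2 scale, PIAS4 was called higher at 0.29 and PTPN6 lower at -0.62, and some alternatives did not keep the calls of PIAS4 and PTPN6. Of 45 tested interferon-induced genes outside the 40, 23 were called higher and 9 lower (51.1% and 20.0%), against 22.0% higher and 20.3% lower over all tested genes, so that the share called lower was that of the background. Their median log2 fold change was 0.38. SLFN5 rose by 2.05, the exonuclease gene ISG20 by 1.55, GBP3 by 1.39 and the helicase gene HELZ2 by 1.29. IFITM2, a membrane protein that blocks virus entry, fell to 48.8 ± 0.766 CPM with BARD1 siRNA, against 65.2 ± 7.84 CPM with control siRNA (SD, n = 3 each; log2 fold change -0.42, edgeR adjusted p = 1.60e-05). The IFITM2 gene spans IFITM1 on the same strand and ends at the same base, so their reads may not have been separated.

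**Figure D5:**
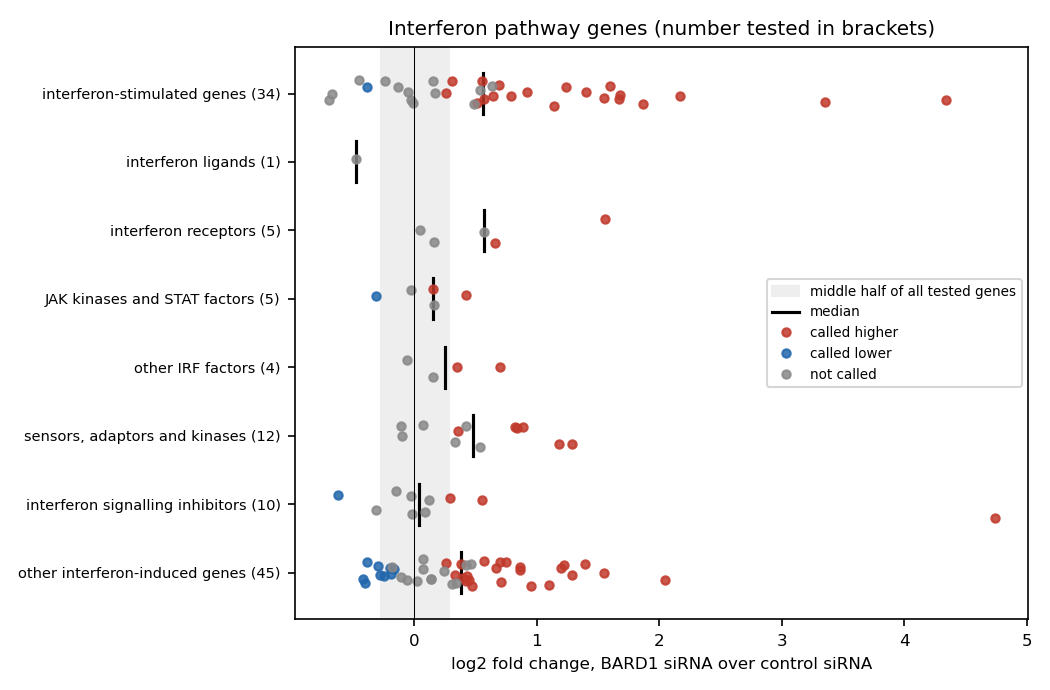
log2 fold change, BARD1 siRNA over control siRNA, of the tested genes in 7 lists of the interferon pathway and in the 40 members, 1 point per gene, coloured by call, with a bar at each list's median and a grey band from the lower to the upper quartile of all tested genes. The medians are 0.57 for interferon receptors, 0.56 for the members, 0.48 for sensors, adaptors and kinases and 0.38 for other interferon-induced genes. They are 0.25 for other IRF factors, 0.15 for JAK kinases and STAT factors and 0.03 for signalling inhibitors, where SOCS1 stands alone at 4.74. The ligands hold IFNE alone, at -0.48.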

How the data were processed

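The authors deposited raw read counts, not normalized, for each gene in 6 poly(A) libraries, 3 per group. The tools CASAVA and HISAT2 and the build GRCh38 (hg38) are listed, per the submitters' processing notes. Counting program, strand setting and annotation release are not stated. All 40 members have the same start and end in GENCODE release 29. The exons of 11 members overlap another gene there, and for IFIT2, IRF9, PARP9 and RSAD2 the partner had the higher mean count. TPM was computed here from the gene lengths that the authors deposited with the counts. Libraries of a group differed by more than sampling noise, and none was a duplicate.

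Genes were tested with edgeR 4.0.16 in R 4.3.3 (robust quasi-likelihood test, TMM factors, group only) on 15271 genes left by filterByExpr with a minimum count of 10 and a minimum total of 15. The SE is the absolute log2 fold change over the square root of F. Adjustment (Benjamini-Hochberg) covered all of these genes, with a threshold of 0.05. The test was checked on simulated data. The titles number biological replicates, but separate transfections are not described, so p-values reflect only how much these cultures varied, which may be technical.

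Members, role groups and lists were chosen with earlier results of these data known, and no list was tested. Every member is named. From each list outside them, up to 4 called genes with the largest absolute change are named, with IFNB1, IFNL1, IFNAR1 and IFNAR2, except that 1 gene is not reported here; UBA7, UBE2L6, DTX3L, IRF3, IFNA1, IFNA21, IFNE and IFITM2 were chosen after their values were seen. Other settings tried were RLE and upper-quartile factors, library size alone, DESeq2 1.42.0, limma-voom (limma 3.58.1), other filters and thresholds, protein-coding genes only, a replicate block, no robust estimation and each library left out. Promoter letters are from RefSeq. Intervals and floors cover counting error only.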

Additional observations from a re-analysis of the deposited data

How the results depend on the processing

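Of the 21 called members, 18 were called in every alternative fit (other factors, tests, filters and designs, and each library left out), and none changed sign there. The others, DDX60, OAS1 and OAS2, lost their call without single libraries. Members called higher numbered 20, and 15 to 22 over the alternatives, with 15 at a fold of at least 1.5 and 18 at an adjusted p of 0.01. Members called lower numbered 1. It was 3 under upper-quartile scaling, and library size alone gave 3 too, through HERC6 and CMPK2, and at a fold of at least 1.5 it was 0. Leaving out single libraries gave 1 to 3. With the replicate block, members called higher numbered 21 and lower 2, through BST2 and HERC6. Replicate numbers did not pair the samples, since deviations of same-numbered libraries correlated at -0.00 to -0.02, and not every library correlated best with its own number. Without the filter on low counts IFI44L (adjusted p = 0.0193) and XAF1 (0.0117) passed as higher.

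Genes called lower in the pathway lists numbered 11, with 6 to 15 over the alternatives. DESeq2 gave 6, upper-quartile scaling and library size alone 15 each, and omission of single libraries 6 to 11. Over all genes, 3004 to 3362 were higher and 2651 to 3075 lower without single libraries, and the log2 fold change of BARD1 lay between -2.83 and -2.45. Values close to 0 and not called turned sign. Without single libraries, EPSTI1 lay between -0.53 and 0.23 (0.16 without BARD1 siRNA replicate 1, 0.11 without BARD1 siRNA replicate 3), PARP9 between -0.12 and 0.08, SAMD9 between -0.11 and 0.04 (0.03 without BARD1 siRNA replicate 1 and 0.03 without control siRNA replicate 1) and IFNAR1 between -0.05 and 0.14. IFNAR1 was -0.01 under upper-quartile scaling, and library size alone gave -0.01 too. The cause was not tested. By CPM without length scaling, 4 of the 5 highest members were shared. With 17.0 to 18.0 reads per CPM in control siRNA libraries, a value under 1 CPM in such a library rests on fewer than 20 reads.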
